A study of Homo sapiens with 10 samples.

Results

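Integrin subunits and focal adhesion adaptors were examined as a group of 36 genes, of 58302 genes listed in each expression table. The group was given as a fixed list of symbols, matched to the Ensembl identifiers of the tables, and all 36 were found. It holds 17 integrin alpha subunits, 8 beta subunits and 11 adaptors of focal adhesions. Their RNA levels did not serve as a rule for choosing them, although earlier results of these data were known when the list was drawn up.

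Integrins are receptors for the extracellular matrix, and each is a heterodimer of an alpha and a beta subunit, so the pairs a cell can form depend on both. The alpha subunit largely sets the ligand: collagens, laminins, RGD-containing proteins such as fibronectin and vitronectin, or counter-receptors on other cells. Talin and kindlins bind the beta tail, and vinculin, paxillin, zyxin, focal adhesion kinase and the ILK, PINCH and parvin complex link it to actin and to signaling. In liver, hepatocytes carry mostly alpha1, alpha5 and alpha9 with beta1, and hepatocellular carcinoma cells often carry a wider set that serves attachment and migration.

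RNA-Seq of 3 human lines labelled as hepatocellular carcinoma gave 10 libraries, with 1 library per condition. The 5 SK-hep1 libraries (SK-Hep1 in the labels) were a mock control, cells overexpressing wild-type PSPC1, either alone or together with PTK6 (PSPC1/PTK6), and cells overexpressing PSPC1-Y523F, again alone or together with PTK6 (PSPC1-Y523F/PTK6). Values for SK-hep1 follow this order unless a library is named. PSPC1 is a paraspeckle RNA-binding protein, PTK6 is a non-receptor tyrosine kinase, and Y523F, which the labels give only as a YF mutation, replaces a tyrosine of PSPC1 by phenylalanine. The 3 Mahlavu libraries were a mock control and cells given PSPC1-CT131, a C-terminal piece of PSPC1, or Mut-NLS-CT131, in which a nuclear localization sequence is mutated. The label of the latter gives only an NLS mutation of PSPC1, and its CT131 form is taken from the study's text. The 2 Huh-7 libraries were a control, called untreated here, and cells given the growth factor HGF, for which the labels give neither dose nor time. The labels do not say whether the overexpressing cells were pools or clones, and every SK-hep1 transfectant was set against the same mock library, as were both Mahlavu transfectants.

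The 8 SK-hep1 and Mahlavu libraries held 19085682 to 24278662 reads on genes, and the Huh-7 totals recovered from the FPKM were 16374128 and 15245935. With 1 library per condition no difference has a replicate check and no test was run. Intervals are 95% counting intervals (exact Poisson for a level, exact binomial for a ratio), and they cover counting error only. PSPC1 had 0 reads in SK-hep1 mock and 7.01, 26.4, 2.28 and 70.9 FPKM (read fragments scaled by gene length and library depth) in the 4 transfectants. PTK6 was at 4.79 FPKM in the mock and at 5.69, 16.7, 4.09 and 10.5 FPKM in the transfectants. PSPC1 therefore differed along with PTK6 between libraries with and without added PTK6, and their parts cannot be told apart there. In Mahlavu, PSPC1 was at 47.3 FPKM in the mock, and the PSPC1-CT131 and Mut-NLS-CT131 libraries held 30.8 and 22.5 FPKM, so the gene total was below mock in both. The 12 hepatocyte marker genes summed to 19.3 to 45.2 FPKM in SK-hep1, 12.5 to 18.5 FPKM in Mahlavu and 29405 to 29623 FPKM in Huh-7. ALB, TTR, TF and FGB were at 0 in every SK-hep1 and Mahlavu library. SERPINA1 was at 16.3 to 42.3 FPKM in SK-hep1 and 7.97 to 10.2 FPKM in Mahlavu. CPS1 was at 0.282 to 3.61 FPKM in SK-hep1 and 4.10 to 8.96 FPKM in Mahlavu. In bulk RNA, fewer cells that carry a transcript and less of it per cell cannot be told apart.

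Upstream sequence is shown for the 4 alpha subunit genes that were at least 2-fold higher or lower in at least 2 contrasts of transfected cells, apart from ITGA2B with 7 to 69 reads in SK-hep1. The sequence is RefSeq's, from assembly GRCh38.p14, 5′ to 3′ along each gene, and ends where the transcript or the listed gene begins, whichever comes first. The stretches are chr5:52787666-52787895 for ITGA1, chr2:181457136-181457201 for ITGA4, chr12:54419461-54419516 on the minus strand for ITGA5, and chr2:172427086-172427335 for the more upstream start of ITGA6. Capitals mark the letters of 4 motifs searched on both strands: the Sp1 GC box GGGCGG, the TCF/LEF core CTTTGA, the Snail E-box CAGGTG and the AP-1 site TGACTCA.
ITGA1: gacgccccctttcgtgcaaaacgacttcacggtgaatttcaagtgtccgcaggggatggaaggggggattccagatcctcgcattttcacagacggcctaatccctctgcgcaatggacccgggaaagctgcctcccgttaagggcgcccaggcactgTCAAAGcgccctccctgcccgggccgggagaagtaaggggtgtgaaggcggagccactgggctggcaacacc
ITGA4: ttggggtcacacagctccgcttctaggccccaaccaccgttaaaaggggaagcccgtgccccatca
ITGA5: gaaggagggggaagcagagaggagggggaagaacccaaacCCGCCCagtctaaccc
ITGA6: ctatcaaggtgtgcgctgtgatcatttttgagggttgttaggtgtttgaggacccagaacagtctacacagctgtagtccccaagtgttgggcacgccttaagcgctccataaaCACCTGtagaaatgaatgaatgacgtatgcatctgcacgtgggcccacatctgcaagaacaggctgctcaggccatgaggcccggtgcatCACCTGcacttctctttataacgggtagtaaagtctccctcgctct
Matches were counted over the 250 bases before the RefSeq start, of which the printed stretch is the part outside both gene models. ITGA1, 62% GC over this window, held 1 TCF/LEF core 92 bases before the start. ITGA4, 72.8% GC, held none of the 4 motifs. ITGA5, 70% GC, held 1 Sp1 GC box 210 bases before the start. ITGA6, 50.8% GC at this start, held the Snail E-box 136 and 46 bases before it. The window of its other start, chr2:172427336-172427585, is not printed. That window was 71.6% GC and held 3 Sp1 GC boxes and no Snail E-box. A window was given for 25 of the 36 members, and among all 34943 windows of that length the GC box stood in 42.5%, the TCF/LEF core in 11.2%, the Snail E-box in 17.5% and the AP-1 site in 4.22%. The median GC content of all windows was 58%. A match describes letters and was not tested as a binding site.

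Between 21 and 25 members reached 1 FPKM in each library, and they took 0.251% to 0.806% of the reads on genes. ITGA8, ITGB6, ITGB7 and ITGB8, which code for alpha8, beta6, beta7 and beta8, stayed below 1 FPKM in every library. ITGA8 had 0 or 1 read in each, and the highest of the 4 was ITGB6 with 0.592 FPKM in Huh-7 given HGF.

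**Figure D1:**
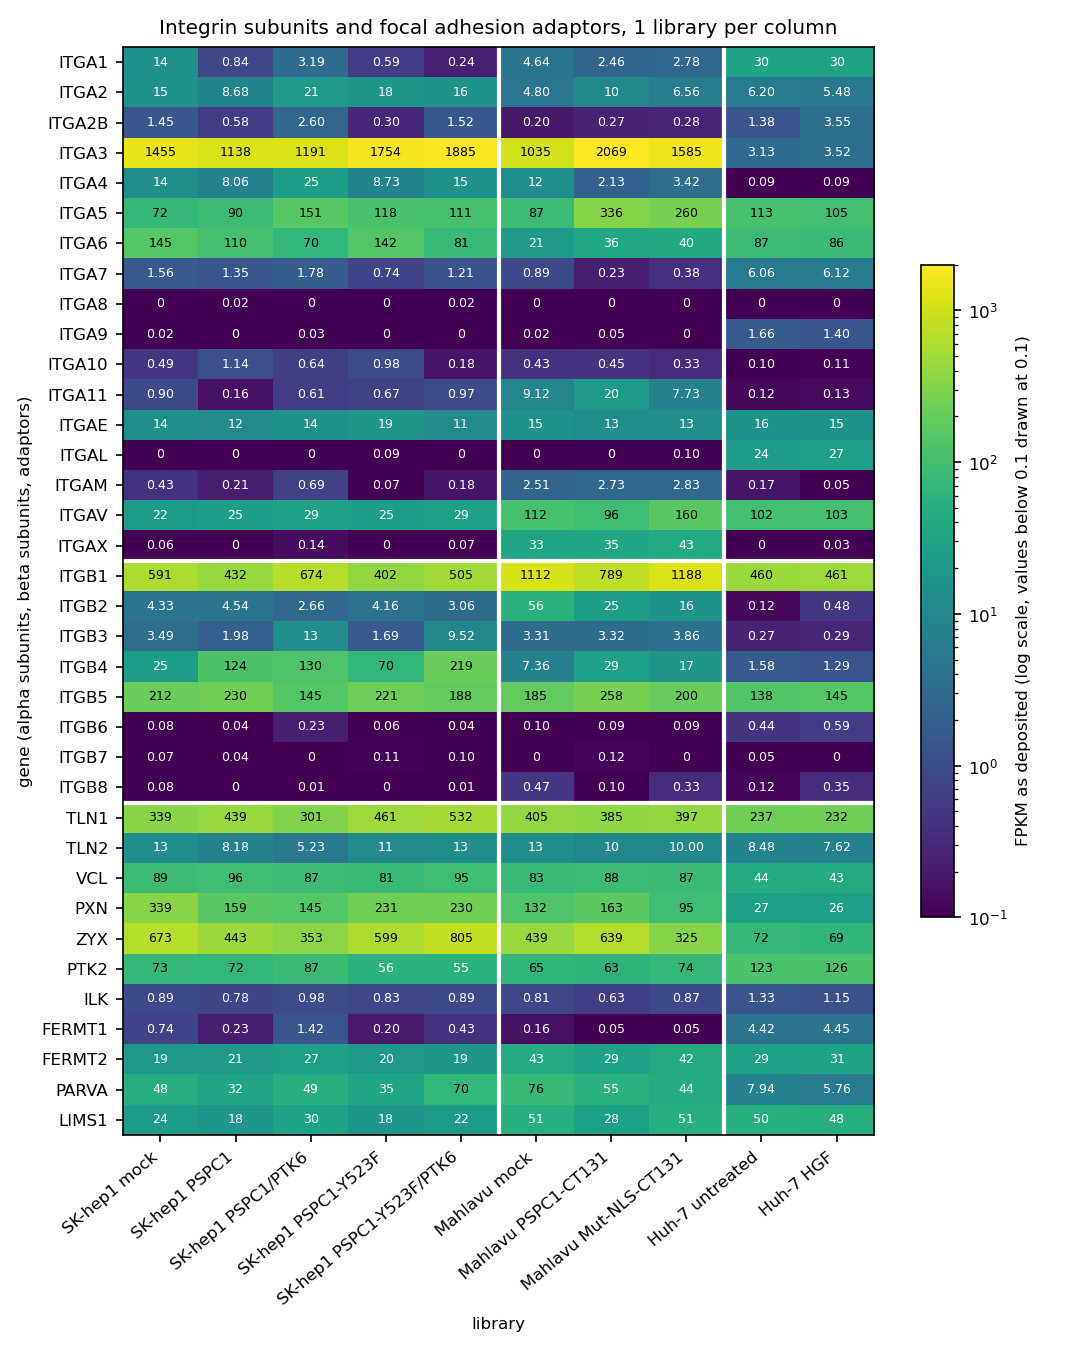
FPKM as deposited of the 36 members (rows: alpha subunits, beta subunits, adaptors, set apart by white lines) in each of the 10 libraries (columns: 5 SK-hep1, 3 Mahlavu, 2 Huh-7), with color on a log scale and the value printed in each cell. Among integrin subunits ITGA3 and ITGB1 are the brightest rows in SK-hep1 and Mahlavu, with ZYX and TLN1 bright among the adaptors, ITGA3 drops to 3.13 and 3.52 FPKM in Huh-7, and ITGAX and ITGAL are each bright in a single line.

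The laminin receptor subunit alpha3, ITGA3, was the most abundant integrin RNA in SK-hep1. ITGA3 was at 1455 FPKM in the mock, and at 1138, 1191, 1754 and 1885 FPKM in the transfectants. In Mahlavu it was at 1035 FPKM in the mock, 2069 FPKM with PSPC1-CT131 and 1585 FPKM with Mut-NLS-CT131. Huh-7 differed from both lines, with 3.13 FPKM untreated and 3.52 FPKM with HGF.

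Beta1, ITGB1, the partner of 12 of the alpha subunits considered, was high in all 3 lines. ITGB1 was at 591, 432, 674, 402 and 505 FPKM in the SK-hep1 libraries. In Mahlavu it was at 1112, 789 and 1188 FPKM in mock, PSPC1-CT131 and Mut-NLS-CT131, and in Huh-7 at 460 and 461 FPKM. The summed FPKM of its alpha partners was 2.22 to 5.15 times that of ITGB1 in SK-hep1, 1.16 to 3.26 times in Mahlavu and 0.740 to 0.761 times in Huh-7. The leading partner was ITGA3 in SK-hep1 and Mahlavu and ITGA5 in Huh-7. These sums compare genes per length, and the length behind the FPKM is shorter than the listed gene length; by the listed length the ranges were 2.47 to 5.77, 1.28 to 3.55 and 0.909 to 0.933.

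Of 23 known alpha-beta pairs, both subunits were at 1 FPKM or more in every library for 9 pairs in SK-hep1, 13 in Mahlavu and 10 in Huh-7. This rule spans 5, 3 and 2 libraries, so it is strictest for SK-hep1. Single libraries held 9 to 12 such pairs in SK-hep1 (12 in the mock), 13 in Mahlavu and 10 in Huh-7. The pairs shared by all 3 lines were alpha2beta1, alpha3beta1, alpha5beta1, alpha6beta1, alphaVbeta1, alpha6beta4 and alphaVbeta5. Mahlavu added the collagen receptor alpha11beta1 and the leukocyte-type receptors alphaMbeta2 and alphaXbeta2, which no other line held. Huh-7 held alpha7beta1 and alpha9beta1, which no other line held in every library.

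Beta4, ITGB4, which pairs only with alpha6 and anchors epithelial cells to laminin, was higher than mock in every transfected SK-hep1 and Mahlavu library. ITGB4 was at 25.5 FPKM in SK-hep1 mock and at 124, 130, 69.9 and 219 FPKM in the transfectants. In Mahlavu it was at 7.36 FPKM in the mock, 28.5 FPKM with PSPC1-CT131 and 17.2 FPKM with Mut-NLS-CT131, and in Huh-7 at 1.58 and 1.29 FPKM. Both mocks were the lowest of their line. On the log2 scale of quantile-normalized FPKM + 1, used for all log2 fold changes here, ITGB4 was above mock by 2.17, 2.25, 1.38 and 2.90 in SK-hep1. The corresponding ratios of deposited FPKM were 4.86 (4.59 to 5.15), 5.12 (4.84 to 5.42), 2.75 (2.58 to 2.92) and 8.59 (8.13 to 9.08). In Mahlavu the log2 differences were 2.24 and 1.31, and the latter was 0.92 with a pseudocount of 5.

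Its partner alpha6, ITGA6, went the other way in the SK-hep1 libraries with PTK6. ITGA6 was at 145, 110, 69.7, 142 and 80.6 FPKM in the SK-hep1 libraries, so both PTK6 libraries were the lowest. The log2 difference from mock was -1.05 with PSPC1/PTK6 and -0.75 with PSPC1-Y523F/PTK6, and only the former passed 2-fold. In Mahlavu ITGA6 was at 20.7 FPKM in the mock, 35.9 FPKM with PSPC1-CT131 and 40.2 FPKM with Mut-NLS-CT131. Those Mahlavu differences were 1.06 and 1.09 on the log2 scale, but 0.77 and 0.93 when the deposited FPKM were not quantile normalized. Huh-7 held 87.2 and 85.6 FPKM.

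Within the alpha6beta4 pair, the subunit with the lower RNA differed between libraries. Alpha6 also pairs with beta1, so these ratios do not give the amount of alpha6beta4 receptor. ITGB4 was the lower of the pair in SK-hep1 mock and PSPC1-Y523F, where the ITGA6 to ITGB4 ratio of FPKM was 5.68 and 2.04. ITGA6 was the lower with PSPC1 alone and in both libraries with PTK6, where the ratio was 0.885, 0.535 and 0.369. The lower subunit was the same in each of these libraries by the listed gene length. ITGB4 remained the lower subunit in all Mahlavu and Huh-7 libraries, with ratios of 1.26 to 2.81 in Mahlavu and of 55.1 and 66.5 in Huh-7.

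Alpha1, ITGA1, a receptor for collagen IV and other collagens with beta1, was lower than mock in every transfected SK-hep1 library. ITGA1 was at 14.4 FPKM (13.6 to 15.2) in the mock and at 0.845 (0.655 to 1.07), 3.19 (2.84 to 3.58), 0.592 (0.438 to 0.783) and 0.242 FPKM (0.153 to 0.362) in the transfectants. These values rest on 1220 reads in the mock and 67, 299, 49 and 23 reads in the others, and no interval reached that of the mock. The log2 differences were -3.01, -2.12, -3.21 and -3.59. The same mock library stands behind all 4, so they are not separate observations of its level. In Mahlavu ITGA1 was at 4.64, 2.46 and 2.78 FPKM, less than 2-fold apart on the log2 scale, and in Huh-7 at 30.5 and 30.2 FPKM.

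**Figure D2:**
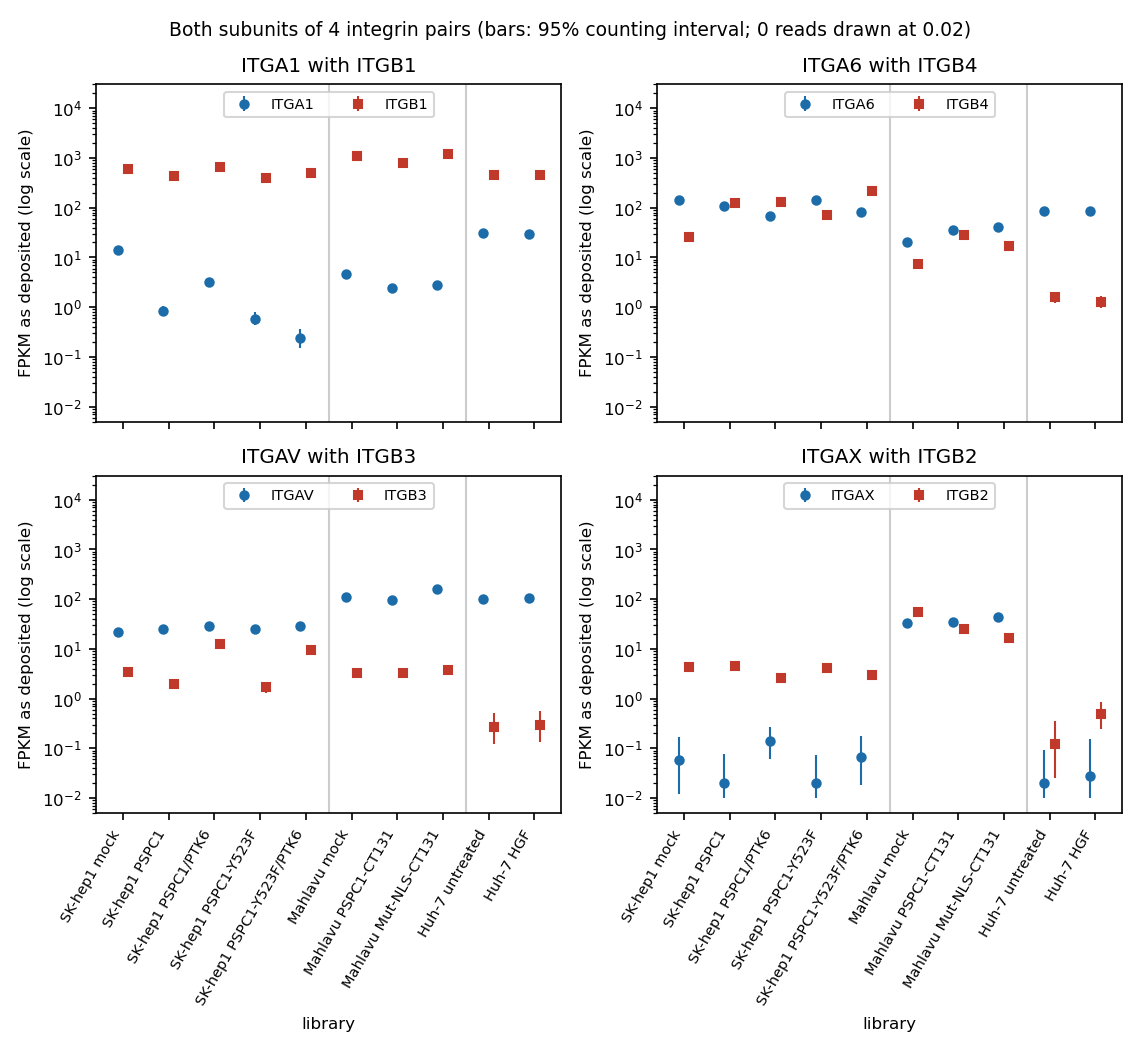
FPKM as deposited (log scale) of the alpha subunit (blue circles) and beta subunit (red squares) of 4 integrin pairs in each library, with 95% counting intervals as bars and 0 reads drawn at 0.02. ITGA1 lies below its mock in every SK-hep1 transfectant while ITGB1 stays between 402 and 674 FPKM, ITGA6 and ITGB4 change order in SK-hep1, ITGB3 is highest in both PTK6 libraries, and ITGAX reaches 33.0 to 43.3 FPKM in Mahlavu.

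The other collagen receptor subunits, alpha2, alpha10 and alpha11, did not share this pattern. ITGA2 was at 15.3, 8.68, 21.5, 18.5 and 15.6 FPKM in the SK-hep1 libraries in the same order, with no contrast against mock past 2-fold. In Mahlavu it was at 4.80 FPKM in the mock, 10.3 FPKM with PSPC1-CT131 and 6.56 FPKM with Mut-NLS-CT131. ITGA2 was thus higher by 1.38 on the log2 scale with PSPC1-CT131, and by 0.97 without quantile normalization. ITGA11 was at 0.161 to 0.971 FPKM in SK-hep1 and at 9.12, 20.5 and 7.73 FPKM in Mahlavu mock, PSPC1-CT131 and Mut-NLS-CT131. Its difference of 1.48 on the log2 scale was found with PSPC1-CT131, while Mut-NLS-CT131 differed from mock by -0.08. ITGA10 stayed between 0.102 and 1.14 FPKM over the 10 libraries.

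The fibronectin receptor subunit alpha5, ITGA5, was higher with both Mahlavu constructs. ITGA5 was at 87.2 FPKM in Mahlavu mock, 336 FPKM with PSPC1-CT131 and 260 FPKM with Mut-NLS-CT131. The log2 differences from the shared mock were 2.07 and 1.74, and the ratios of deposited FPKM were 3.85 (3.69 to 4.02) and 2.98 (2.85 to 3.12). In SK-hep1 ITGA5 was at 72.2, 90.1, 151, 118 and 111 FPKM, with the mock lowest and PSPC1/PTK6 highest. PSPC1/PTK6 was above mock by 1.05 on the log2 scale, but by 0.88 with TMM scaling and 0.85 with DESeq2 size factors, below 2-fold. Huh-7 held 113 and 105 FPKM.

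Alpha4, ITGA4, a receptor for fibronectin and VCAM1, was lower with both Mahlavu constructs. ITGA4 was at 12.3 FPKM in the mock, 2.13 FPKM with PSPC1-CT131 and 3.42 FPKM with Mut-NLS-CT131, from 396, 60 and 93 reads. The log2 differences were -1.74 and -1.44, the latter being -0.87 with a pseudocount of 5. In SK-hep1 ITGA4 was at 13.7, 8.06, 25.3, 8.73 and 15.3 FPKM, higher in each PTK6 library than in the library with the same PSPC1 form alone. That difference was 1.27 on the log2 scale for PSPC1 and 0.74 for PSPC1-Y523F. Huh-7 held 0.09 FPKM in both libraries.

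Beta3, ITGB3, forms the vitronectin receptor with alphaV. On the log2 scale used here it was the only member at least 2-fold higher in both PTK6 additions. ITGB3 was at 3.49 FPKM in SK-hep1 mock, 1.98 FPKM with PSPC1 and 12.7 FPKM with PSPC1/PTK6. It was at 1.69 FPKM with PSPC1-Y523F and 9.52 FPKM with PSPC1-Y523F/PTK6, so the libraries with PTK6 were the highest of the 5. PTK6 with PSPC1 gave a log2 difference of 1.91 and a ratio of deposited FPKM of 6.43 (5.09 to 8.21), from 81 and 615 reads. PTK6 with PSPC1-Y523F gave 1.96 and 5.65 (4.40 to 7.34), from 72 and 468 reads. These contrasts share no library. Against the shared mock the differences were 1.32 with PSPC1/PTK6 and 1.29 with PSPC1-Y523F/PTK6, and 0.89 and 0.86 with a pseudocount of 5. Of the exonic bases of ITGB3, 51.6% are also assigned to AC068234.1 on the same strand, so its counts are uncertain. ITGB3 was at 3.31 to 3.86 FPKM in Mahlavu and 0.272 and 0.292 FPKM in Huh-7.

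The main partner of beta3, alphaV, varied less in SK-hep1. ITGAV was at 22.2, 24.9, 28.5, 25.2 and 28.8 FPKM in the SK-hep1 libraries, 112, 95.6 and 160 FPKM in Mahlavu and 102 and 103 FPKM in Huh-7. ITGB3 was the lower subunit of the pair in every library, and the ITGAV to ITGB3 ratio was 12.6 and 14.9 with PSPC1 and PSPC1-Y523F alone, and 2.24 and 3.02 once PTK6 was added to each. ITGA2B, the platelet partner of beta3, was at 1.45, 0.579, 2.60, 0.299 and 1.52 FPKM in SK-hep1, from 7 to 69 reads. It was 1.14 higher on the log2 scale when PTK6 was added to PSPC1-Y523F and 1.05 lower with PSPC1-Y523F than in mock. ITGA2B was also higher when PTK6 was added to PSPC1, but short of 2-fold on that scale. The platelet markers PF4, PPBP and GP9 had 0 reads in every SK-hep1 library. GP1BA, also on the platelet list, was at 0.119 to 0.935 FPKM there, highest with PSPC1/PTK6, as ITGA2B was.

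Beta5, ITGB5, another partner of alphaV, was among the steadier integrins, at 145 to 230 FPKM in SK-hep1, 185 to 258 FPKM in Mahlavu and 138 and 145 FPKM in Huh-7. ITGAE, which pairs with beta7, was at 11.2 to 19.3 FPKM in all 10 libraries while ITGB7 stayed at or below 0.119 FPKM. ITGA7, a laminin receptor of muscle, was at 0.742 to 1.78 FPKM in SK-hep1, 0.231 to 0.891 FPKM in Mahlavu and 6.06 and 6.12 FPKM in Huh-7. ITGA9 was at or below 0.0541 FPKM in SK-hep1 and Mahlavu and at 1.66 and 1.40 FPKM in Huh-7.

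The leukocyte integrin subunits separated the lines. ITGAX, alphaX, was at 33.0, 35.4 and 43.3 FPKM in Mahlavu mock, PSPC1-CT131 and Mut-NLS-CT131, from 1680 to 1982 reads, against 0 to 8 reads in each SK-hep1 library and 0 and 1 read in Huh-7. Its partner beta2, ITGB2, was at 55.6 FPKM in Mahlavu mock, 24.7 FPKM with PSPC1-CT131 and 16.5 FPKM with Mut-NLS-CT131. ITGB2 was 1.77 lower on the log2 scale with Mut-NLS-CT131, and the difference of -0.99 with PSPC1-CT131 stayed just short of 2-fold. ITGB2 was at 2.66 to 4.54 FPKM in SK-hep1 and 0.123 and 0.483 FPKM in Huh-7. As a result, alphaX exceeded beta2 in both transfected Mahlavu libraries (ratios of 1.43 and 2.63) and not in the mock (0.594). ITGAM, alphaM, was at 2.51 to 2.83 FPKM in Mahlavu and at or below 0.686 FPKM elsewhere. Among leukocyte markers in Mahlavu, CD3D, CD3E and MS4A1 had 0 reads in every library, PTPRC was at or below 0.0313 FPKM, and only CD14 was at 1 FPKM or more throughout.

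ITGAL, alphaL, was found in Huh-7, at 23.6 FPKM (21.4 to 26.0) untreated and 26.5 FPKM (24.1 to 29.1) with HGF, and had 0 to 2 reads in each other library. Its only partner, beta2, was at 0.123 and 0.483 FPKM there, from 3 and 11 reads. Of 10 leukocyte markers, 4 were at 1 FPKM or more in both Huh-7 libraries: LYZ at 441 and 427 FPKM, CD14 at 4.37 and 4.63 FPKM, CORO1A at 3.83 and 2.69 FPKM and CD3D at 2.81 and 3.94 FPKM. PTPRC was at 0.455 and 0.814 FPKM, and MS4A1 and NKG7 had 0 in both. Their part in the ITGAL level was not tested. ITGAL shares 9.56% of its exonic bases with genes on the other strand, and the library kit does not mark strand.

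Of the 11 adaptors, 2 passed 2-fold in any contrast. With PSPC1/PTK6 it was 2 of 11 kept adaptors, against 8.41% of all kept genes. Between the mocks it was 1 of 9, against 33.4%. None passed in the other contrasts, where 0.820% to 6.42% of all kept genes did. Paxillin, PXN, a scaffold for focal adhesion kinase, was at 339 FPKM in SK-hep1 mock and at 159, 145, 231 and 230 FPKM in the transfectants. The mock was the highest, and the log2 differences were -0.99, -1.15, -0.53 and -0.56, so 1 of the 4 passed 2-fold. In Mahlavu PXN was at 132, 163 and 95.3 FPKM and in Huh-7 at 26.7 and 26.3 FPKM. Talin 2, TLN2, which activates integrins through the beta tail, was at 12.7 FPKM in SK-hep1 mock and 5.23 FPKM with PSPC1/PTK6, and at 8.18 to 13.2 FPKM in the other 3 SK-hep1 libraries. Its log2 difference from mock there was -1.38, and -0.96 with a pseudocount of 5.

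On the log2 scale used here, talin 1, vinculin, zyxin, focal adhesion kinase, kindlin-2, alpha-parvin and PINCH-1 stayed within 2-fold in all 10 contrasts. VCL was at 81.4 to 96.2 FPKM in the 8 SK-hep1 and Mahlavu libraries and 44.4 and 43.0 FPKM in Huh-7. ZYX was at 353 to 805 FPKM in SK-hep1, 325 to 639 FPKM in Mahlavu and 72.5 and 68.6 FPKM in Huh-7, and TLN1 was at 301 to 532, 385 to 405 and 232 to 237 FPKM. PTK2, focal adhesion kinase, was at 55.2 to 86.5 FPKM in SK-hep1, 63.2 to 74.4 FPKM in Mahlavu and 123 and 126 FPKM in Huh-7. PARVA was the adaptor nearest the threshold when PTK6 was added to PSPC1-Y523F, at 34.7 and 70.4 FPKM and 0.98 on the log2 scale. FERMT1, the epithelial kindlin, was at 0.0494 to 1.42 FPKM in SK-hep1 and Mahlavu and 4.42 and 4.45 FPKM in Huh-7. ILK was at 0.632 to 1.33 FPKM from 15 to 28 reads per library, but 78.5% of its exonic bases overlap TAF10 and other genes, so its level is uncertain.

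Counted over the list, 7.69% to 26.9% of kept members passed 2-fold against SK-hep1 mock, from 2 to 7 members per contrast. Genes were kept at a mean of at least 1 FPKM over both libraries. With PSPC1, 2 of 26 kept members did, against 5.57% of all kept genes, and with PSPC1/PTK6 it was 7 of 26 against 8.41%. With PSPC1-Y523F it was 3 of 27 against 5.29%, and with PSPC1-Y523F/PTK6 3 of 26 against 5.03%. The members past 2-fold with PSPC1/PTK6 were ITGA5, ITGB3 and ITGB4, which were higher, and ITGA1, ITGA6, TLN2 and PXN, which were lower. The median log2 difference of kept members was -0.24, -0.02, -0.10 and 0.11 in these contrasts, with -0.03, -0.04, -0.01 and -0.04 for all kept genes.

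When PTK6 was added to PSPC1, 2 of 25 kept members passed 2-fold, against 4.96% of all kept genes, and the medians were 0.06 and -0.02. When it was added to PSPC1-Y523F, 3 of 25 passed, against 5.98%, with medians of 0.23 and -0.03. All 5 of these differences were toward higher levels with PTK6, and ITGB3 stands in both contrasts. Among all kept genes past 2-fold, 383 of 615 and 469 of 742 were higher too. These were 3.09% and 3.78% of all kept genes. The first count depended on the settings: it was 5 with the deposited FPKM (6.43% of all kept genes) and with TMM (5.39%), all higher, and 7 with a pseudocount of 0.1 (7.45%), of which 3 were lower.

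In Mahlavu, 6 of 25 kept members passed 2-fold with PSPC1-CT131, against 6.33% of all kept genes, and 5 of 25 with Mut-NLS-CT131, against 6.42%. The 3 members higher in both were ITGA5, ITGA6 and ITGB4, and ITGA4 was lower in both. All 11 of these differences were in integrin subunits, of which 11 alpha and 5 beta subunits were kept. Genes found in both contrasts are counted in each, against the same mock. None of the 9 kept adaptors passed 2-fold, which for so few genes is near the 6.33% and 6.42% of all kept genes. With PSPC1-CT131 the log2 difference tended to be higher in transcripts of higher GC content across all genes (Spearman rho of 0.57 over 12402 genes, which share both libraries), and was 0.41 over 25 members. With Mut-NLS-CT131 the same values were -0.10 and -0.05, and when PTK6 was added to PSPC1 they were -0.31 and -0.32. After a fit of gene length and GC content was taken out, the 3 members higher in both contrasts were looked up. ITGA5, ITGA6 and ITGB4 differed by 1.90, 1.25 and 1.77 with PSPC1-CT131. The part of GC content in the remaining differences was not tested.

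**Figure D3:**
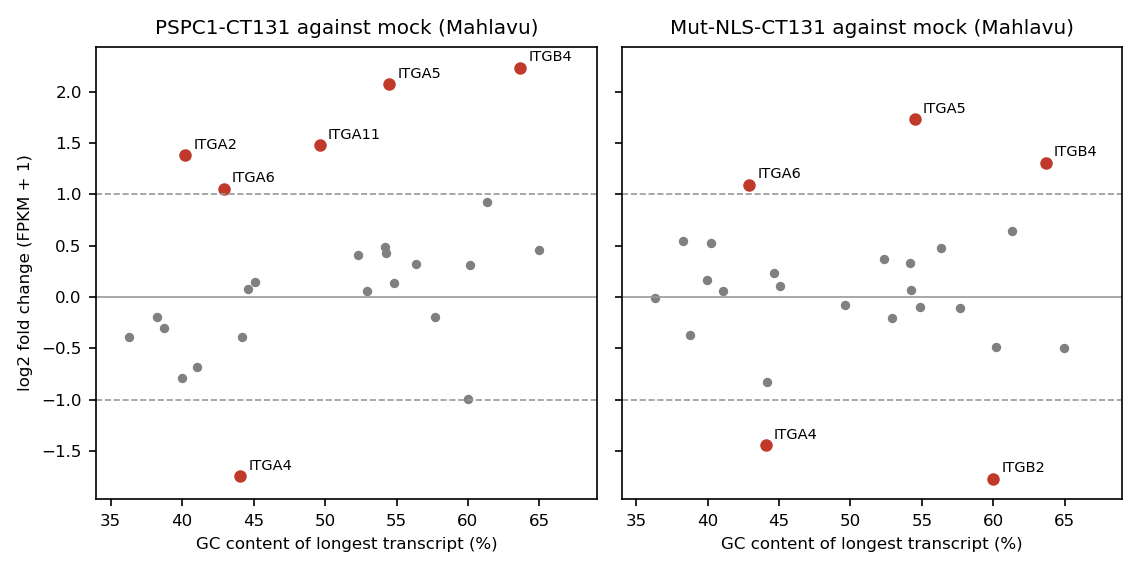
Log2 fold change of each kept member against mock (y axis) by the GC content of its longest transcript in percent (x axis) for both Mahlavu transfectants. Red points with names passed 2-fold (dashed lines), gray points did not. The named points above 0 with PSPC1-CT131 range from 40.2% GC (ITGA2) to 63.7% (ITGB4), and ITGA4 is the lowest, at 44.1%.

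In Huh-7, the module differed little between the HGF and untreated libraries. On the log2 scale with a pseudocount of 1, none of 25 kept members passed 2-fold, against 0.820% of all kept genes. Some members that were not kept had wider ratios from few reads, such as ITGB2 at 0.123 and 0.483 FPKM. Among kept members the widest differences were in ITGA2B and PARVA. ITGA2B was at 1.38 and 3.55 FPKM from 25 and 60 reads. Its ratio of deposited FPKM was 2.58 (1.59 to 4.29), and 0.92 on the log2 scale with the pseudocount. PARVA was at 7.94 and 5.76 FPKM (ratio interval 0.587 to 0.894). These intervals exclude a ratio of 1 by counting error alone. The median ratio of the higher to the lower library was 1.07 for integrin subunits, 1.04 for adaptors and 1.09 for all genes at 1 FPKM or more in both libraries.

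Between the mocks, Mahlavu differed from SK-hep1 in 12 of 27 kept members, against 33.4% of all kept genes. ITGAX, ITGB2, ITGAV, ITGA11 and ITGB1 were higher in Mahlavu, by 4.68, 3.01, 2.11, 1.74 and 1.29 on the log2 scale. ITGA6, ITGB4, ITGA2, ITGA1, ITGA2B and PXN were lower, with log2 differences of -3.08, -2.22, -2.07, -2.03, -1.41 and -1.37, and ITGA7 was lower at the 2-fold limit (0.891 against 1.56 FPKM, 31 and 52 reads). ITGAX had 1795 reads against 3, a ratio of FPKM of 572 with a counting interval of 195 to 2775. The ITGB1 difference was 0.91 without quantile normalization and 0.47 with TMM, so it depended on the scaling. The RNA of both subunits of alpha6beta4 was thus lower in Mahlavu mock. For the collagen receptors alpha1beta1 and alpha2beta1 the alpha RNA was lower, while ITGB1 was not. RNA of alphaV, alpha11, alphaX and beta2 was higher, and receptor protein was not measured.

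**Figure D4:**
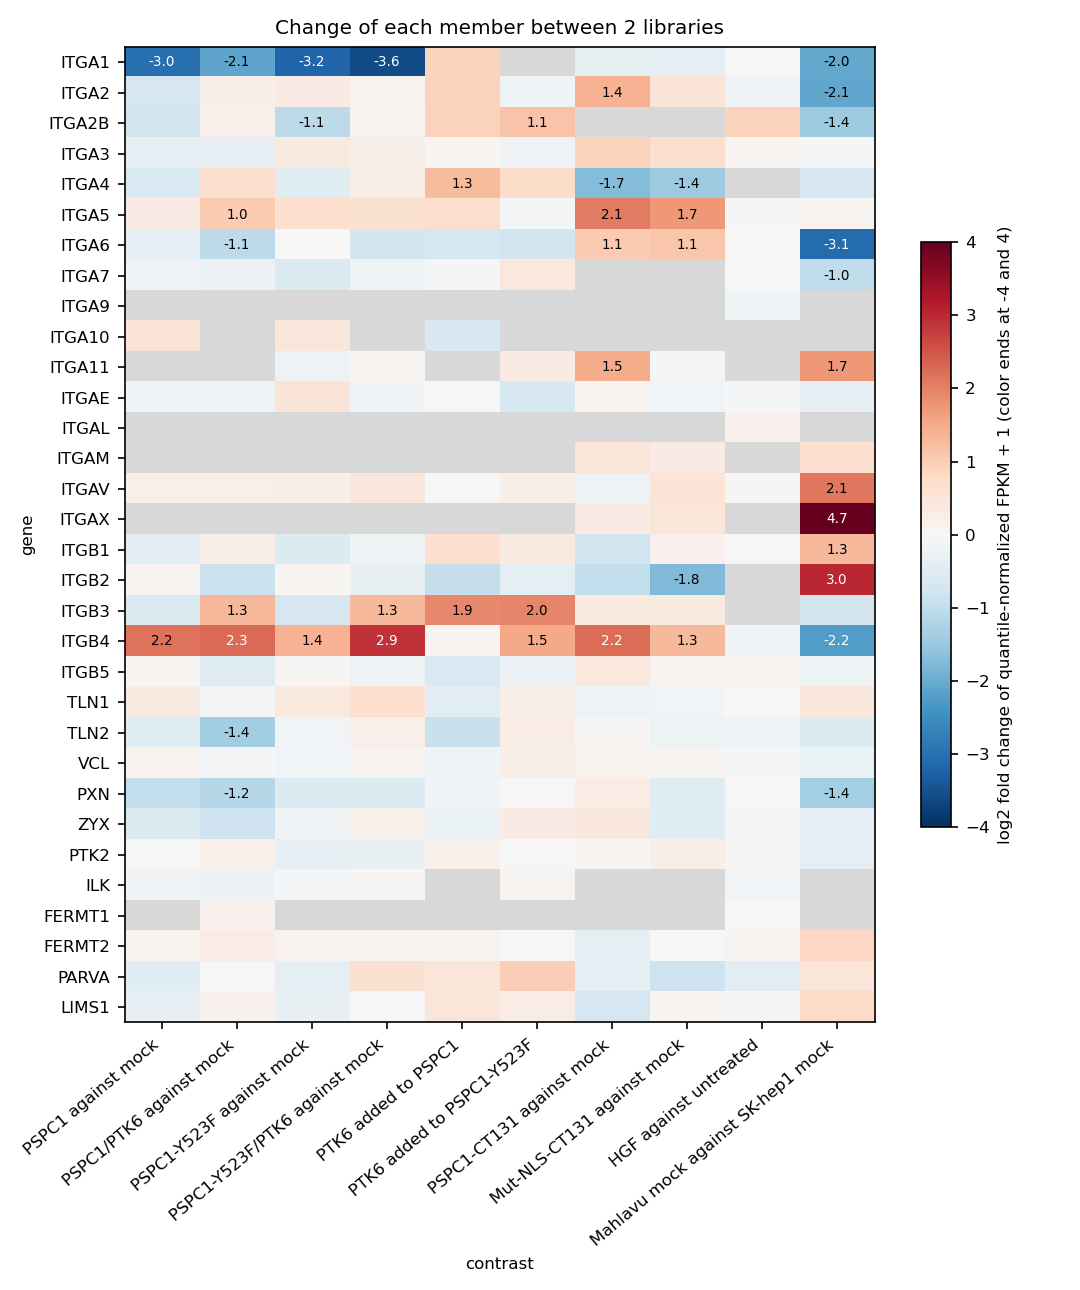
Log2 fold change of quantile-normalized FPKM + 1 for each member kept in at least 1 contrast (rows) in the 10 contrasts (columns), with red for higher, blue for lower, gray for not kept, and the value printed where it passed 2-fold. ITGA1 is blue and ITGB4 red in all 4 SK-hep1 columns against mock, ITGB3 is red in both PTK6 additions, and no cell of the HGF column carries a value.

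Integrin subunits varied more between SK-hep1 libraries than adaptors. Among genes at 1 FPKM or more in every SK-hep1 library, the median ratio of the highest to the lowest quantile-normalized FPKM was 2.08 for 12 integrin subunits, 1.69 for 9 adaptors and 1.62 for all 10872 genes. In Mahlavu it was 1.92 for 16 integrin subunits, 1.32 for 9 adaptors and 1.53 for all 12028 genes. These medians describe the libraries and were not tested.

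Of 46 other adhesion genes outside the list, 5 of 38 kept passed 2-fold with PSPC1 (5.57% of all kept genes), 3 of 39 with PSPC1/PTK6 (8.41%), 4 of 38 with PSPC1-Y523F (5.29%) and 5 of 39 with PSPC1-Y523F/PTK6 (5.03%), each of them higher than mock. When PTK6 was added, 1 of 38 passed with PSPC1 (4.96%) and 2 of 39 with PSPC1-Y523F (5.98%). In Mahlavu, 3 of 43 passed with PSPC1-CT131 (6.33%) and 1 of 43 with Mut-NLS-CT131 (6.42%), and none of 43 with HGF in Huh-7 (0.820%). PTK2B, a relative of focal adhesion kinase, was at 1.51 FPKM in SK-hep1 mock, 26.7 FPKM with PSPC1 and 4.57 FPKM with PSPC1/PTK6. It was at 11.99 FPKM with PSPC1-Y523F and 2.62 FPKM with PSPC1-Y523F/PTK6, so it was lower in each PTK6 library than with the same PSPC1 form alone. The log2 differences for added PTK6 were -2.55 and -1.74, opposite in sign to those of ITGB3 in the same libraries. FBLIM1, migfilin, which links filamin to kindlin, was at 9.82 FPKM in the mock and 37.5 to 56.6 FPKM in the transfectants, and the tensin TNS2 at 15.1 FPKM and 36.6 to 52.8 FPKM. In Mahlavu, LIMS2 was higher with PSPC1-CT131 (1.71) and DAB2 lower (-1.29), and KANK2 was lower with Mut-NLS-CT131 (-1.12), all on the log2 scale.

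Among 35 integrin ligand genes, 5 of 23 kept passed 2-fold with PSPC1 (5.57% of all kept genes), 10 of 24 with PSPC1/PTK6 (8.41%), 6 of 24 with PSPC1-Y523F (5.29%) and 6 of 23 with PSPC1-Y523F/PTK6 (5.03%). When PTK6 was added, 7 of 24 passed with PSPC1 (4.96%) and 9 of 24 with PSPC1-Y523F (5.98%). In Mahlavu, 10 of 23 passed with PSPC1-CT131 (6.33%) and 6 of 23 with Mut-NLS-CT131 (6.42%), and none of 24 with HGF in Huh-7 (0.820%). Fibronectin was lower than mock in every transfected SK-hep1 library. FN1 was at 95.7 FPKM in the mock and 18.2, 11.2, 21.1 and 41.8 FPKM in the transfectants. COL6A3, a collagen VI chain, was at 14.5 and 48.5 FPKM with PSPC1 and PSPC1-Y523F alone, and at 0.345 and 1.01 FPKM once PTK6 was added to each. ICAM1, the counter-receptor of beta2 integrins, was at 17.2 FPKM in the mock and 205 FPKM with PSPC1/PTK6. In Mahlavu, tenascin-C was higher with both constructs, with TNC at 2.19, 14.4 and 17.7 FPKM, and vitronectin lower, with VTN at 14.3, 1.21 and 2.85 FPKM. SPP1, osteopontin, was at 91.8 FPKM in Mahlavu mock, 91.7 FPKM with PSPC1-CT131 and 441 FPKM with Mut-NLS-CT131, and the laminin chain LAMB3 at 16.4, 54.1 and 58.7 FPKM.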

How the data were processed

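Gene tables were read as deposited: for SK-hep1 and Mahlavu, read counts per gene and FPKM, and for Huh-7 FPKM only. The submitters' processing notes name TopHat2 2.0, HTSeq 0.6.1, edgeR and GRCh38.p12 without their roles, while the study's text names hg18, which the coordinates do not match (97.6% of 58039 shared genes sit at their GENCODE 29 positions on GRCh38). The authors made the FPKM from the counts with a gene length shorter than the listed one (median ratio 0.719), the same in every library. Whole reads were recovered from the Huh-7 FPKM (100% of values within 0.01 of a whole number, over genes with a known length). The labels describe poly-T selection, the study's methods rRNA depletion. Lines without a value, 8 per file, were left out.

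Quantile normalization of FPKM used 1 set of 8 libraries (SK-hep1 with Mahlavu) and another for Huh-7. Log2 fold changes used a pseudocount of 1, which understates changes of low genes. Genes averaging 1 FPKM or more over both libraries were kept, and those at 2-fold or more were counted. Groups came from the sample labels. Alternatives were pseudocounts of 0.1 and 5, the deposited FPKM, no filter or a mean of 5 FPKM, normalization within each line, TMM (edgeR 4.0.16), DESeq2 1.42.0 size factors, and a fit of length and GC content. Levels by the listed length were added after the data were seen. Scripts ran in Python 3.11.15 and R 4.3.3 and were tested on simulated data. Values in every library were given for members past 2-fold in any contrast, for both subunits of their pairs and for shared subunits, and of the other lists for the largest differences. Members and lists were chosen with earlier results of these data known.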

Additional observations from a re-analysis of the deposited data

How the results depend on the processing

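Of 43 member differences past 2-fold, 27 stayed past 2-fold under all 9 alternatives wherever the gene was kept, and 0 reversed. The filters and pseudocounts cannot reverse a sign. Every alternative rescales the same libraries, so the absence of reversals is no replicate check. Counts of members are given with the share of all kept genes at the same setting. For PTK6 added to PSPC1 the count moved from 2 (4.96%) to 7 with a pseudocount of 0.1 (7.45%; 4 higher and 3 lower), 5 with deposited FPKM (6.43%), 5 with TMM (5.39%) and 4 with DESeq2 size factors (5.25%). For Mut-NLS-CT131 it moved from 5 (6.42%) to 2 with a pseudocount of 5 (2.53%), and for HGF from 0 (0.820%) to 1 with a pseudocount of 0.1 (2.12%). The Mahlavu pairs went from 13 to 8 when 5 FPKM was required. Alpha1beta1, alpha2beta1, alpha4beta1, alphaMbeta2 and alphaVbeta3 fell out, each with a subunit below 5 FPKM in at least 1 Mahlavu library. The cause of the shifts in member counts was not tested. Without quantile normalization the median log2 difference of all kept genes was 0.15 for PSPC1/PTK6, -0.13 for PSPC1-Y523F/PTK6, 0.20 for PTK6 added to PSPC1, -0.24 for PSPC1-CT131 and 0.41 between the mocks, and within 0.1 of 0 in the other 5 contrasts. No paired analysis was possible because each condition has 1 library and the labels carry no replicate numbers. With 1 library per condition, leaving out a replicate was not possible either. Normalization within each line was not run for HGF or for the comparison of the mocks. Depth limits members with few reads, such as ITGA2B, ITGA7, ITGB8 and ILK.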
